A study of Mus musculus with 10 samples.

Results

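The translation initiation factors outside the cap-binding eIF4F complex are described here in ribosome profiling data from mouse embryonic stem cells. The members were the coding genes with symbols Eif1 to Eif6, leaving out those that begin with Eif4, found by matching the listed transcripts to the GENCODE M21 annotation. The deposited values held 38 such genes of 14300 coding genes, each with 1 transcript. They comprised 5 genes of the eIF1 group, 4 subunit genes of eIF2, 2 genes for eIF2A and eIF2D, 4 subunit genes of eIF2B, 4 eIF2 kinases, 14 eIF3 genes, 4 genes of the eIF5 group and Eif6. A further member by name, Eif2b4, was not analysed here. The rule used names only and no measured value.

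All libraries came from CGR8 cells, a feeder-independent embryonic stem cell line from strain 129 mice, grown on gelatin with serum and leukemia inhibitory factor. Ribosome profiling, the sequencing of mRNA fragments that ribosomes protect from RNase I, was done on untreated cells and on cells given DMDA-PatA (1 µM for 10 min), harringtonine (2 µg/ml for 10 min) or puromycin (0.2 mg/ml for 20 min). DMDA-PatA is an analog of pateamine A and acts on the helicase eIF4A of eIF4F, harringtonine holds ribosomes at start codons, and puromycin releases growing peptide chains. Whole transcriptome reads were sequenced from untreated cells. Each of the 5 conditions had 2 libraries, all cultures held the same amount of DMSO, and cycloheximide was present only in the cold buffers. The study's methods call the replicates biological, without saying how they were kept apart, and p-values measure only the spread between these libraries.

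Control libraries held 9022894 and 10522777 reads on coding open reading frames (ORFs), drug-treated libraries 608623 to 1902839 and transcriptome libraries 16534120 and 37777972. All 8 embryonic stem cell markers had reads, together 1392 and 1290 CPM (reads scaled to equal library totals) in the transcriptome libraries, against 7.98 and 6.54 for endoderm markers. Mesoderm markers stood higher than endoderm markers, at 209.6 and 209.4 CPM, mostly T and Hand1, and trophectoderm markers had 31.2 and 28.6. The neural markers (445 and 397 CPM) were mostly Nes, and the fibroblast markers (5604 and 6000) mostly Col1a1. In such bulk libraries, fewer cells of a type and less RNA per cell cannot be told apart.

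Initiation in eukaryotes begins when eIF2, bound to GTP and initiator tRNA, joins the small ribosomal subunit together with eIF1, eIF1A, eIF3 and eIF5. This complex is recruited to the capped mRNA by eIF4F and scans to the start codon, where eIF5 promotes GTP hydrolysis by eIF2 and eIF5B joins the subunits. eIF2B reloads eIF2 with GTP, the eIF2 kinases block that exchange by phosphorylating eIF2α, and eIF6 keeps free large subunits from joining small ones.

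Stretches around start codons are shown for the members whose start context or 5′ untranslated region (5′ UTR) the results below refer to, from GENCODE M21 transcripts on GRCm38, with the AUG in capitals as ATG and written 5′ to 3′. Eif1, the factor that monitors start codon choice, lies at chr11:100319885-100322096 (+ strand) and its paralog Eif1b at chr9:120492491-120495330 (+ strand). Both, with Eif3b, lacked a purine 3 bases before the AUG and a G just after it. Of the members 7.89% lacked both, against 7.16% of 11021 coding transcripts, and 86.8% against 85.2% had the purine. These 11021 had a start and a stop codon at the listed ORF ends in M21, which was not required of the members.
Eif1: gaatcgtatcgtATGtccgct
Eif1b: cactagtgtcgcATGtccact
Eif3b: cagcgcgggcccATGcaggac
Eif5: taataagccaaaATGtctgtc
Eif2s2: cgaactacagccATGtccggg
Eif3l: agcgccgtagccATGtcttac
Eif3k: gcaacagtgatcATGgcgatg
Eif2ak4: gccccggccgccATGgctggg

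Upstream AUGs were present in the M21 5′ UTRs of 10 members (26.3%), against 52.1% of the same 11021 coding transcripts, without matching for 5′ UTR length. Eif5, at chr12:111538016-111546752 (+ strand), had 5 of them, which are shown because no other member had as many. They lay 543, 533, 230, 122 and 90 nt before the start of the ORF, in a 5′ UTR that measured 626 nt in M21 and 541 nt in the deposited values.
Eif5 upstream AUG at 543 nt: agatcgacgtgcATGcgagcc
Eif5 upstream AUG at 533 nt: gcatgcgagccaATGacaaga
Eif5 upstream AUG at 230 nt: cgcgttgggtttATGtcttta
Eif5 upstream AUG at 122 nt: gaaaattttttcATGtcagag
Eif5 upstream AUG at 90 nt: ttgcagtcgtttATGtcatcc

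The values below are normalized read counts, in which the authors made the spike-in reads of the ribosome profiling libraries equal and scaled the transcriptome libraries to each other. Eif1 and Eif3j1 had 0 ORF reads in all 10 libraries, which allows up to 3 reads per library. The counting kept only unique genome matches, and 100% of the 30-nt windows of the Eif1 ORF and 99.7% of those of the Eif3j1 ORF also occurred elsewhere in the genome. These ORFs therefore gave no value. Of the 38 members, 13 had at least 10% of such windows and 25 had fewer.

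In untreated cells, most initiation factors carried more footprints than their mRNA level gave the typical gene, and the eIF2 kinases carried fewer. The TE-score, the ratio of control footprints to transcriptome reads on the ORF, had a median of 2.02 over the 34 members with at least 100 control reads per library, against 1.03 over 8131 coding transcripts. In a test of this ratio with the typical transcript set to 0 on the log2 scale (edgeR quasi-likelihood test, adjusted p under 0.05), 28 of the 36 members tested were higher and 3 lower, where 34.0% of all 14017 transcripts tested were higher and 36.4% lower. The median log2 ratio was 1.16 for the members and −0.04 for coding transcripts. Without the 13 members with repeated windows, 19 of 25 were higher and 3 lower. All 31 calls were made again without any 1 of the 4 libraries, and Eif1a and Eif5a2 were called higher without 1 control library.

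**Figure D1:**
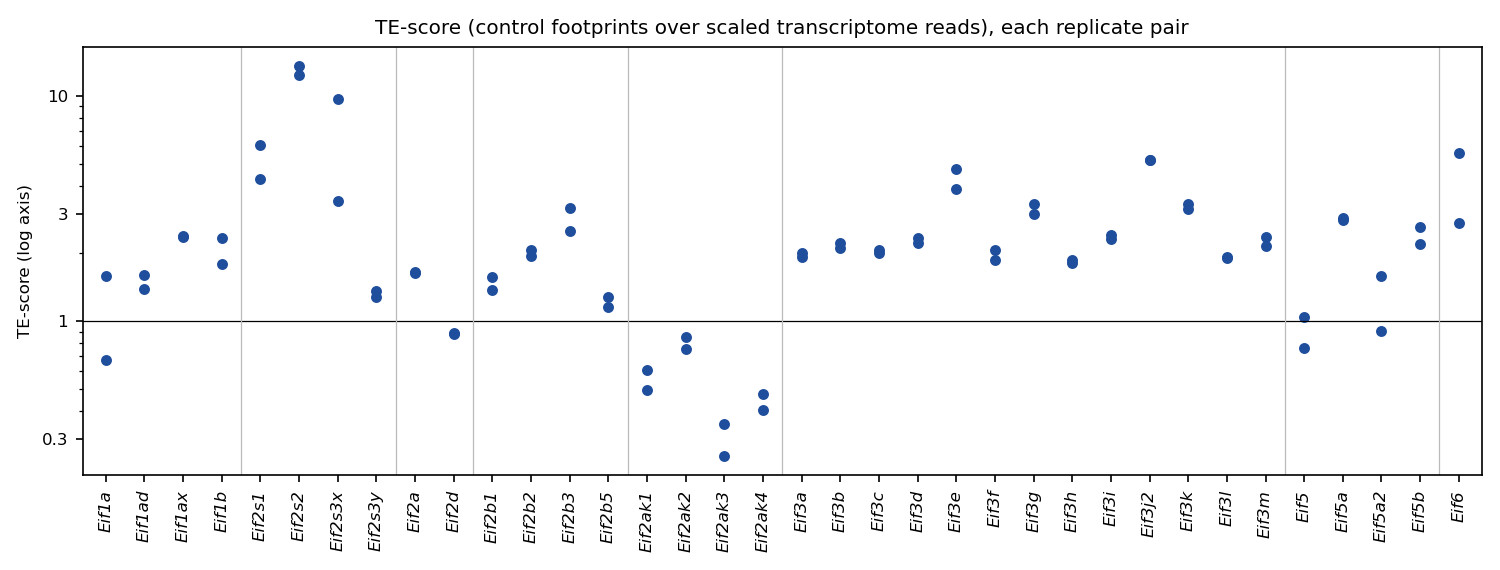
TE-score of the 36 members with ORF reads on a log axis, 1 point per replicate pair, in groups by factor. All eIF3 points lay above 1, Eif2s2 reached 12.3 and 13.5, and the 4 kinases lay below 1.

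eIF3, the scaffold of the small subunit complex, stood uniformly high. All 13 eIF3 genes with ORF reads were higher, with log2 ratios between 1.03 and 2.55 and a median of 1.32. Eif3g, an RNA-binding subunit, had TE-scores of 2.99 and 3.32 (log2 1.80 ± 0.10 SE, adjusted p = 2.35e-09, edgeR). Eif3k scored 3.31 and 3.14, Eif3e 3.86 and 4.72 and Eif3j2 5.18 and 5.19. Repeated windows made up 0.8%, 50.8% and 74.7% of these ORFs, in that order, and their part in the scores was not tested. The Eif3j2 ORF is 100% identical to that of Eif3j1 over 783 aligned nt, so its score may not be that of a separate gene. The 13 genes took 0.852% and 0.848% of all coding ORF footprints, against 0.403% and 0.374% of the transcriptome reads.

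The subunits of eIF2 varied more. Eif2s2, which encodes eIF2β, had the highest TE-scores of all members at 12.3 and 13.5 (log2 3.84 ± 0.12, adjusted p = 2.78e-11, edgeR). Eif2s1, encoding eIF2α, scored 6.07 and 4.29. The X-linked copy of eIF2γ, Eif2s3x, scored 3.42 and 9.72, so its replicates lay further apart than those of any other member. Windows repeated elsewhere made up 84.4%, 57.2% and 91.3% of these 3 ORFs, and the part of this in the scores was not tested. All 4 eIF2 subunit genes were called higher, and so were the 4 eIF2B genes, from Eif2b5, the catalytic subunit (TE-scores 1.28 and 1.16), to Eif2b3 (3.18 and 2.50).

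The kinases were the reverse. The PERK gene Eif2ak3 scored 0.349 and 0.253 (log2 −1.61 ± 0.12, adjusted p = 4.35e-08, edgeR), the GCN2 gene Eif2ak4 0.475 and 0.404 and the HRI gene Eif2ak1 0.612 and 0.498. These 3 were called lower. Eif2ak2, which encodes the double-stranded RNA sensor PKR, scored 0.854 and 0.757, a difference from the typical transcript that was not called (adjusted p = 0.202). The 4 kinases together took 0.0153% and 0.0137% of coding footprints and 0.0302% and 0.0315% of transcriptome reads.

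The remaining members were mixed. Eif6 was higher at 5.60 and 2.73, although only 243 of the 735 nt of its coding sequence were listed as ORF. Eif5b, the subunit joining GTPase, and Eif5a, a factor for peptide bond formation and release, had log2 ratios of 1.40 ± 0.11 and 1.66 ± 0.10, both called. Eif5, the GTPase activator, scored 1.05 and 0.763, with a log2 ratio of −0.01 ± 0.11 that was not called. Eif2d, which can deliver tRNA to ribosomes without eIF2, scored 0.883 and 0.885 and was not called either.

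Other translation genes, read from the same fit, were described by count. Of 14 genes of the eIF4 family 6 were higher and 4 lower, with a median log2 ratio of −0.05. All 9 elongation and release factors were higher (median 1.01), as were 28 of 39 ribosomal proteins, with 5 lower (median 1.09), and 8 of 13 regulators of initiation, with 4 lower (median 0.48). None of these lists was tested against the members.

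Footprint density in untreated cells, the normalized count per kb of ORF, spanned 218-fold over the members, from 54.0 for Eif2ak4 to 11780 for Eif3k. Among the 8 eIF3 genes with under 10% repeated windows the range was narrower, at 4.25-fold. It ran from 2769 ± 260 (SD, n = 2) for Eif3i over 3718 ± 218 for Eif3f, 3825 ± 478 for Eif3b and 4526 ± 529 for Eif3a to 5077 ± 44.2 for Eif3g, 6055 ± 479 for Eif3d, 6708 ± 22.8 for Eif3l and 11780 ± 1417 for Eif3k. Neighbours such as Eif3f and Eif3b did not differ beyond their spread. The 4 eIF2B genes lay within 1.52-fold, from 965 ± 104 for Eif2b5 through 998 ± 42.5 for Eif2b2 and 1073 ± 58.8 for Eif2b1 to 1466 ± 188 for Eif2b3. Those of Eif2b5, Eif2b2 and Eif2b1 did not differ beyond their spread. The kinases were among the lowest members, with 266 ± 44.1 for Eif2ak1, 231 ± 31.4 for Eif2ak2, 105 ± 17.9 for Eif2ak3 and 54.0 ± 7.33 for Eif2ak4, in a range that also held Eif5a2 (261) and Eif3j2 (108).

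DMDA-PatA lowered the ORF footprints of all 36 members tested on the spike-in scale, as it did for 99.3% of the 12499 transcripts tested, with 0.056% higher. The median fold inhibition, control over drug, was 24.2 over 34 members and 22.6 over 8131 coding transcripts. The range among the members was wide. Eif5 went from 1253 and 930 normalized counts in the control libraries to 10.7 and 18.7 (74.3-fold), Eif2s1 from 1517 and 1042 to 18.3 and 17.0 (72.4-fold), and Eif5b from 4759 and 4421 to 51.8 and 79.5 (69.9-fold). These groups were far apart. At the other end, Eif2s3x went from 196 and 517 to 89.0 and 162 (2.84-fold), with drug values below both controls but close to the lower one, and its call was lost without control replicate 2 (log2 fold change −0.65, adjusted p = 0.318, edgeR). Eif2s2 went from 1973 and 1808 to 140 and 269 (9.24-fold) and Eif3f from 4193 and 3860 to 275 and 442 (11.2-fold).

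**Figure D2:**
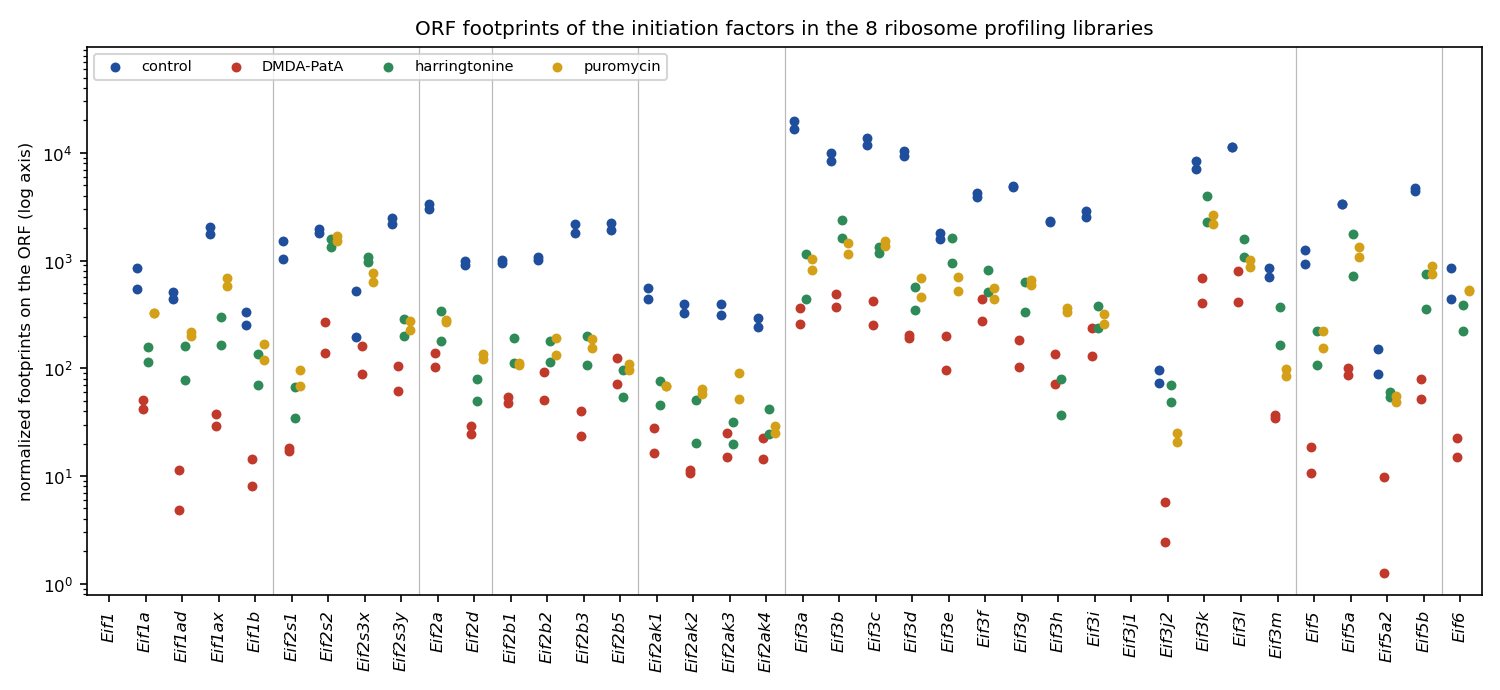
Normalized ORF footprints of the 36 members in each of the 8 ribosome profiling libraries on a log axis, colored by condition. The control points of Eif5 (1253 and 930) lay far above its DMDA-PatA points (10.7 and 18.7), while the harringtonine points of Eif2s3x (978 and 1082) lay above its control points (196 and 517).

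Relative to the typical transcript (normalization by the trimmed mean of M values, TMM), the members kept somewhat fewer ORF footprints with DMDA-PatA. Of 36 members 16 were lower and 4 higher, with a median log2 fold change of −0.31, where 23.6% of all transcripts were lower and 18.8% higher and the median coding transcript stood at −0.13. The 16 lower members included Eif5 (−2.0 ± 0.26 SE, adjusted p = 5.38e-06, edgeR), Eif5b (−1.91 ± 0.20), Eif2s1 (−1.90 ± 0.26), Eif2b3 (−1.77 ± 0.21) and Eif3a (−1.64 ± 0.21), the largest subunit of eIF3. The 4 higher were Eif2s3x (2.64 ± 0.36), Eif2s2 (0.97 ± 0.21), Eif3f (0.72 ± 0.18) and Eif3e (0.65 ± 0.21). Of these 4, Eif3f alone had under 10% repeated windows. Without DMDA-PatA replicate 2 the count of lower members dropped to 9. Of the 20 calls, 8 were lost without 1 library, namely those of Eif1ad, Eif2a, Eif2ak2, Eif2d, Eif2s3y, Eif3e, Eif5a and Eif6, whose highest adjusted p ranged from 0.0569 (Eif2d) to 0.332 (Eif2ak2), each keeping its sign, and Eif1a was called higher without control replicate 2 (adjusted p = 0.038).

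By group, the eIF5 genes had the lowest median log2 fold change, −1.42, with 3 of 4 lower, and their share of coding footprints went from 0.0892% and 0.0925% to 0.0391% and 0.0347%. The eIF1 group had a median of −0.95 with 2 lower, Eif1ax (−1.60 ± 0.21) and Eif1ad (−1.54 ± 0.34). Eif2a and Eif2d were both lower, and Eif6 also (−0.86 ± 0.28). The eIF3 genes split, with 4 lower (Eif3a, Eif3c, Eif3d, Eif3g), 2 higher and a median of −0.19. In eIF2B only Eif2b3 was lower and in the kinases only Eif2ak2 (−0.76 ± 0.29).
Of the comparison lists, the elongation and release factors had 6 of 9 lower and 1 higher (median −1.35), the eIF4 family 3 lower and 3 higher of 13 (median −0.06), and the ribosomal proteins 13 lower and 4 higher of 37 (median −0.09).

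**Figure D3:**
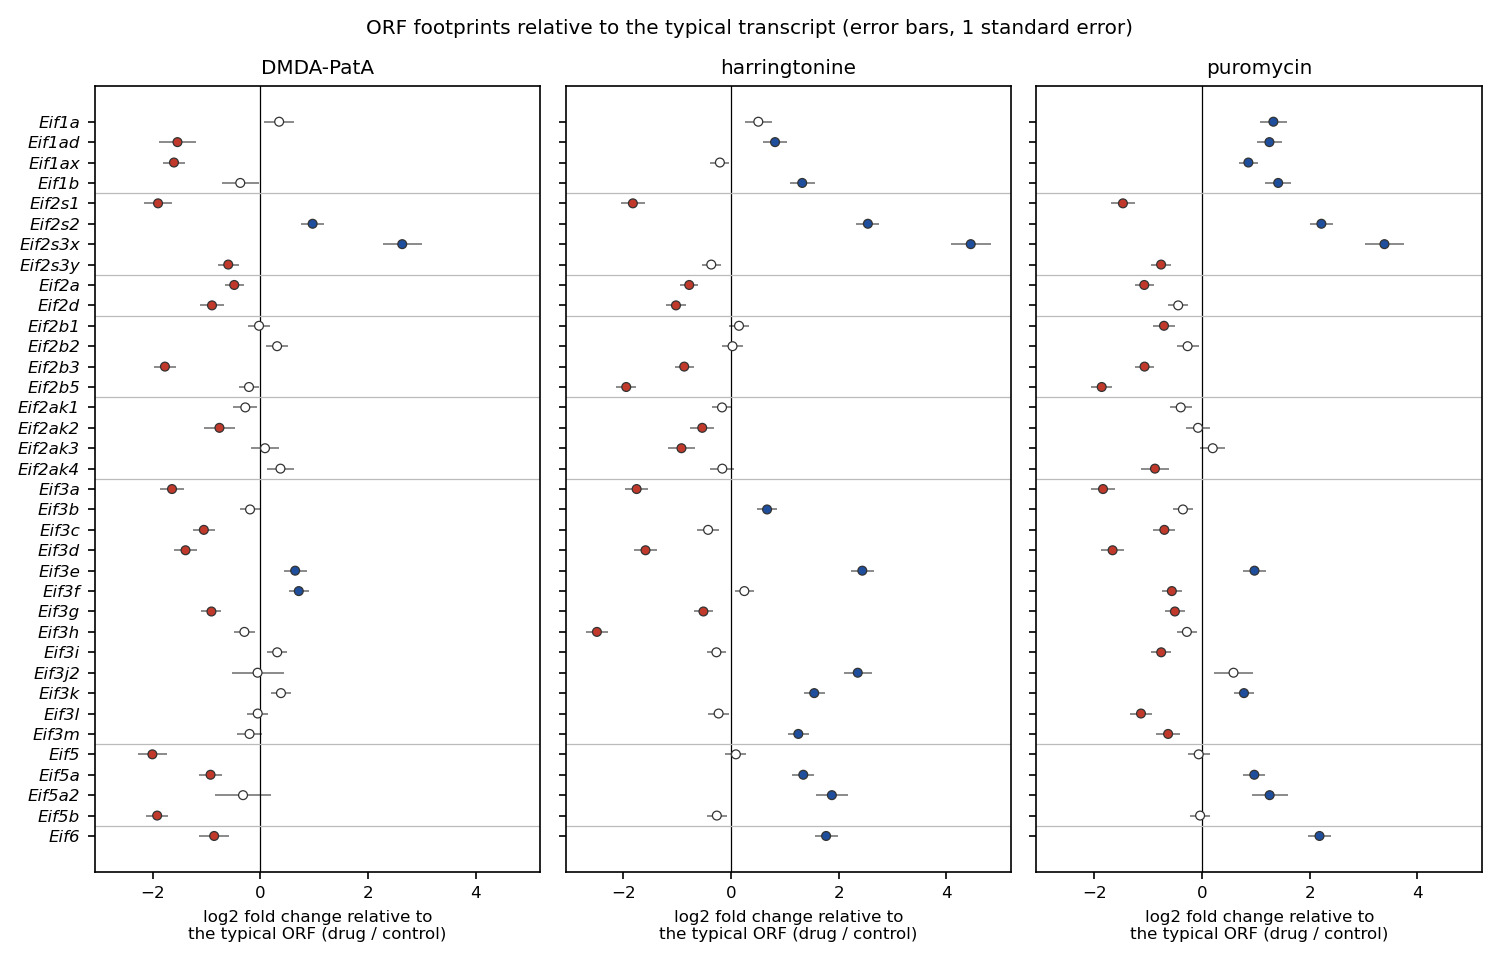
Log2 fold change of ORF footprints relative to the typical transcript for the 36 members and each drug, with error bars of 1 standard error. Eif2s3x and Eif2s2 lay to the right of 0 with all drugs and Eif3a, Eif3d and Eif2s1 to the left, while Eif5 and Eif5b lay to the left with DMDA-PatA and near 0 with harringtonine and puromycin.

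Harringtonine lowered 32 and raised 1 of the 36 members on the spike-in scale, where 92.9% of transcripts fell and 0.512% rose. The median fold inhibition was 8.18 over the members and 8.77 over coding transcripts. Eif2s3x rose from 196 and 517 to 978 and 1082 (log2 1.53 ± 0.44, adjusted p = 0.000689, edgeR), with no overlap between the groups, although the call was lost without control replicate 1 (log2 1.00, adjusted p = 0.153). The other calls lost without 1 library were those of Eif3k, Eif5a2 and Eif6. Eif2s2 (1973 and 1808 against 1571 and 1343), Eif3e (1594 and 1790 against 1602 and 959) and Eif3j2 (96.7 and 73.4 against 70.0 and 48.3) were not called. All 3 were called lower once the size factors of the DMDA-PatA and harringtonine libraries were exchanged (adjusted p of 0.0168, 0.0039 and 0.0159, edgeR), and Eif3e also without harringtonine replicate 1 (adjusted p = 0.0421). The strongest fall was that of Eif3h, from 2286 and 2319 to 80.2 and 37.1 (39.3-fold), and Eif2b5 fell from 2233 and 1917 to 96.4 and 53.9 (27.6-fold).

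Relative to the typical transcript, 11 members were lower and 12 higher with harringtonine (30.0% and 26.6% of all transcripts). Higher were Eif2s3x (4.45 ± 0.37), Eif2s2 (2.54 ± 0.22), Eif3e (2.44 ± 0.21), Eif3j2 (2.35 ± 0.26), Eif5a2 (1.87 ± 0.29) and Eif6 (1.76 ± 0.22), among others. Lower were Eif3h (−2.49 ± 0.21), Eif2b5 (−1.95 ± 0.19), Eif2s1 (−1.83 ± 0.23), Eif3a (−1.76 ± 0.21) and Eif3d (−1.59 ± 0.21), among others. All these named calls held without any 1 library. The calls of Eif2ak2, Eif3b and Eif3g did not, with highest adjusted p of 0.45, 0.0777 and 0.143. Calls were gained without 1 library by Eif1a (higher, lowest adjusted p = 0.0108) and Eif3c (lower, 0.0145). Repeated windows moved with these values. The 11 tested members with at least 10% of such windows had a median of 1.25, with 6 higher and 2 lower, and the 25 with fewer had a median of −0.23, with 6 higher and 9 lower. The part of repeats in the result was not tested.

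Puromycin lowered 33 and raised 1 of the 36 members on the spike-in scale, where 90.1% fell and 0.352% rose, with a median fold inhibition of 7.13 against 6.38 over coding transcripts. The member that rose was again Eif2s3x, from 196 and 517 to 771 and 637 (log2 0.98 ± 0.44, adjusted p = 0.03, edgeR), and this call was lost without control replicate 1 or either puromycin library (highest adjusted p = 0.521). A further 6 calls, those of Eif1a, Eif1ad, Eif1b, Eif3e, Eif5a and Eif5a2, were also lost without 1 library. Eif2s2 (1685 and 1524 with puromycin) and Eif6 (854 and 442 against 523 and 533) were not called.

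Relative to the typical transcript, 15 members were lower and 11 higher with puromycin (24.9% and 24.3% of all transcripts). Of the 11 higher members, 7 had listed ORFs of up to 600 nt. The largest value was that of Eif2s3x (3.39), and Eif2s2 was also higher, with 91.3% and 84.4% repeated windows in these ORFs. All 4 tested eIF1 genes were higher, with Eif1b at 1.42 ± 0.25 and Eif1a at 1.33 ± 0.25. The listed ORF of Eif1a had 432 nt, where the longest coding sequence of the gene in M21 has 762 nt. Eif6, with only 243 of 735 coding nt listed as ORF, stood at 2.18 ± 0.22 (adjusted p = 1.33e-07, edgeR). The eIF3 genes were mostly lower, 8 of 13 with 2 higher, led by Eif3a (−1.84 ± 0.21), Eif3d (−1.66 ± 0.21) and Eif3l (−1.13 ± 0.20). Their share of coding footprints went from 0.852% and 0.848% to 0.521% and 0.575%. In eIF2B, Eif2b5 (−1.86 ± 0.19), Eif2b3 (−1.07 ± 0.18) and Eif2b1 (−0.71 ± 0.20) were lower. Calls of Eif2ak4, Eif3c, Eif3f, Eif3g, Eif3m and Eif5a2 were lost without 1 library, with highest adjusted p between 0.0535 (Eif5a2) and 0.201 (Eif3f).

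ORF length moved with the relative values over all coding transcripts. With puromycin, ORFs of up to 600 nt had a median of 1.14 and 68.0% were higher, against a median of −0.85 for ORFs over 2400 nt. All 7 members with such short ORFs were higher with puromycin and 5 with harringtonine, where the coding median was 1.19 and 65.5% were higher. These 7 include Eif6 by its listed 243 nt, of a coding sequence of 735 nt, and Eif1a by its listed 432 nt, of 762 nt. With DMDA-PatA the coding median of these short ORFs was 0.46, with 10.6% lower and 36.1% higher, and 4 of the 7 short members were lower and 0 higher. The part of length in the members' values was not tested. The 3 drug comparisons share the control libraries, and the values are given side by side only.

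Footprints on the 5′ UTR behaved differently from those on the ORF, and eIF3 genes led the increases. Of the 28 members with enough 5′ UTR reads, on the spike-in scale, 10 were higher and 6 lower with DMDA-PatA, where 14.7% of the 6585 5′ UTRs tested were higher and 28.9% lower. The median log2 fold change was 0.22 for the members and −0.47 for coding transcripts. These members include Eif1a, although 72.5% of its listed 5′ UTR lay in coding exons of Eif1a. The direction of such calls depends on the scale, since TMM factors from ORF reads moved the coding median to 3.71 and put all 28 members higher. Of the 9 eIF3 5′ UTRs tested, 7 were higher, those of Eif3j2, Eif3l, Eif3i, Eif3m, Eif3g, Eif3k and Eif3c, and none was lower. The other 3 that were higher were Eif2b2, Eif2b1 and Eif1b.

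Eif3l, at chr15:79075179-79094405 (+ strand), went from 2.36 and 6.35 normalized counts on a 5′ UTR of 37 nt to 77.7 and 167 (log2 4.71 ± 0.64, adjusted p = 8.02e-12, edgeR). The ratio of reads summed over the libraries, scaled by the mean value of 1 read in each condition, was 25.3, with a 95% counting interval of 13.2 to 55.8 on 9 control reads. Eif3k, at chr7:28971372-28981814 (− strand), went from 30.7 and 58.0 to 258 and 334 (2.72 ± 0.48) and Eif3g from 17.7 and 19.0 to 96.6 and 147 (2.72 ± 0.53). In these 3 genes the drug libraries lay clearly above both controls. Other gains started from a few reads. Eif3j2 went from 1.18 and 0.906 to 29.0 and 43.8. Its ratio by the same scaling was 34.6, with an interval of 9.33 to 290 on 2 control reads. Of its ORF windows 74.7% were repeated, and repeats in 5′ UTRs were not counted for any member. The bases just before the AUG are the same in Eif3j1 and Eif3j2. Eif3i (1.18 and 0.906 to 6.31 and 17.0) gave a ratio of 10.7 with an interval of 2.73 to 92.5 and Eif3m (2.36 and 0.906 to 12.6 and 12.2) a ratio of 8.07 with an interval of 2.55 to 41.0. These intervals cover counting error only.

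Eif5 and Eif6 went the other way on the spike-in scale, and with TMM factors both turned positive (log2 1.78 and 1.64). For Eif5, the 541 nt counted may not hold all the upstream AUGs shown above. Its 5′ UTR had 281 and 270 normalized counts in the control libraries and 39.1 and 63.3 with DMDA-PatA (−2.43 ± 0.47, adjusted p = 4.52e-06, edgeR). That of Eif6 had 357 and 441 and fell to 59.3 and 73.1 (−2.59 ± 0.47). The other lower members were Eif2d (−1.83 ± 0.47), Eif1ad (−1.72 ± 0.45), Eif1 (−1.55 ± 0.57) and Eif1ax (−1.06 ± 0.44). Calls of Eif1, Eif1ax, Eif1b, Eif2b1, Eif2b2, Eif3c, Eif3i and Eif3m were lost without 1 library, with highest adjusted p from 0.0639 (Eif3i) to 0.718 (Eif1ax), and without control replicate 1 or control replicate 2 only 6 members were called higher. Without 1 DMDA-PatA library, Eif5a was called higher and Eif2ak2 and Eif2ak3 lower (adjusted p of 0.0216, 0.0427 and 0.0231).

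**Figure D4:**
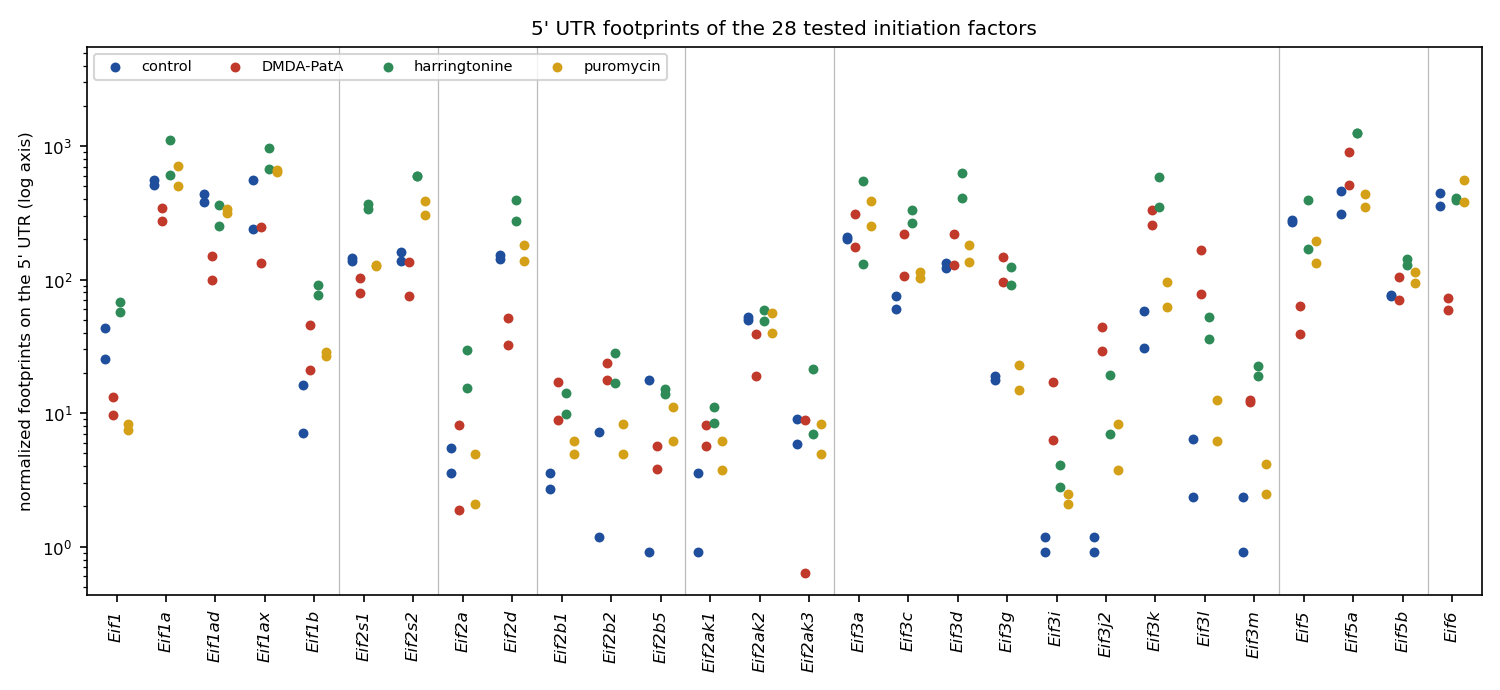
Normalized 5′ UTR footprints of the tested members in each ribosome profiling library on a log axis, colored by condition, with libraries at 0 left out. For Eif3l the DMDA-PatA points (77.7 and 167) lay far above the control points (2.36 and 6.35), and for Eif5 (39.1 and 63.3 against 281 and 270) far below on this spike-in scale.

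The listed length of the 5′ UTR moved with these changes. It differed from the M21 length in some members, such as Eif3l (37 against 81 nt), Eif3g (37 against 60), Eif3j2 (90 against 50) and Eif1b (205 against 320). Of members with a 5′ UTR of at most 100 nt, 7 of 8 were higher with DMDA-PatA (median log2 fold change 2.81), and of all 800 coding 5′ UTRs in this range 46.5% were higher (median 1.43). Between 100 and 300 nt, 3 of 15 members were higher and 4 lower, against 15.1% and 18.8% of 3483 coding 5′ UTRs. Between 300 and 600 nt, 2 of 5 members were lower and 0 higher, against 46.4% and 3.51% of 1764. The part of length in the members' values was not tested.

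**Figure D5:**
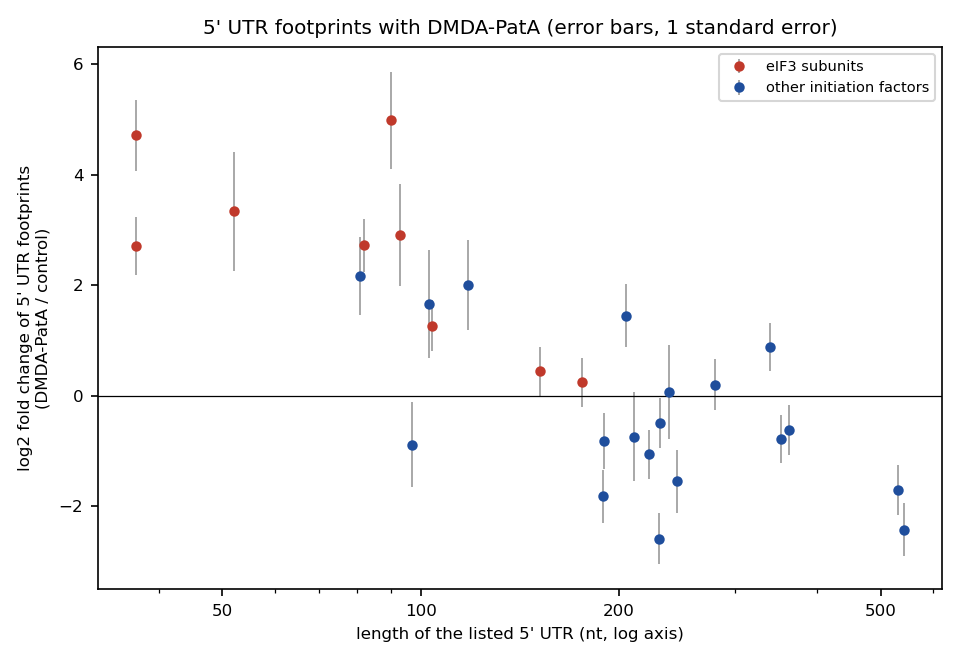
Log2 fold change of 5′ UTR footprints with DMDA-PatA on the spike-in scale against the length of the listed 5′ UTR on a log axis, 1 point per tested member with a bar of 1 standard error. Members with short 5′ UTRs such as Eif3l (37 nt, 4.71) lay high and Eif5 (541 nt, −2.43) low.

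Harringtonine raised the 5′ UTR footprints of 16 of 28 members, where 35.1% of all 5′ UTRs rose and 5.19% fell. By listed length, 6 of 8 members of at most 100 nt rose, against 54.0% of coding 5′ UTRs. Between 100 and 300 nt, 8 of 15 rose, against 43.9%. Between 300 and 600 nt, 2 of 5 rose, against 18.3%, and the part of length was not tested. None of the members fell by edgeR's adjusted or unadjusted p, and limma and DESeq2 gave 0 as well at both. The largest values were those of Eif3m (3.63 ± 0.89), Eif3j2 (3.49 ± 0.98), Eif3k (3.39 ± 0.49, adjusted p = 9.7e-10, edgeR), Eif3l (3.24 ± 0.65) and Eif1b (2.79 ± 0.56). Eif3k reached 586 and 351 normalized counts and Eif5a 1255 and 1242, against 308 and 458 in the control libraries. Of the 16 calls 8 were lost without 1 library (Eif1ax, Eif2a, Eif2ak1, Eif2b2, Eif2d, Eif2s1, Eif3j2 and Eif5a), and without control replicate 2 the count was 10. Eif2b5 (adjusted p = 0.0182) and Eif3a (0.0165) were called higher only when 1 library was left out. For Eif5 the log2 fold change was 0.02 ± 0.44 and for Eif6 0.01 ± 0.44.

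With puromycin no member's 5′ UTR was called in either direction by edgeR, where 0.41% of all 5′ UTRs were lower and 0.562% higher. At an unadjusted p under 0.05 edgeR gave 1 lower and 3 higher. DESeq2 called 0 and limma 1 lower, and the lowest value was that of Eif1 (−2.12 ± 0.67, adjusted p = 0.0886, edgeR).

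The 5′ UTR gained relative to the ORF of the same mRNA with all 3 drugs, a ratio within a library that does not depend on the scaling. Of 27 members with both regions, all were higher with DMDA-PatA and all with harringtonine, and 25 with puromycin, where 93.6%, 95.5% and 78.5% of all 6442 transcripts were higher and 0.124%, 0.14% and 0.0621% lower. The exceptions with puromycin were Eif6 (0.42 ± 0.42, called without control replicate 2) and Eif1ad (0.86 ± 0.41). The median share of a member's footprints on its 5′ UTR was 0.711% and 0.605% in the control libraries and 30.9% and 25.6% with DMDA-PatA, against 1.32% and 1.35%, and 25.8% and 28.6%, over coding transcripts. The median log2 change was 6.01, 4.54 and 3.0 for the members and 4.35, 3.98 and 2.53 for coding transcripts. With DMDA-PatA the 9 eIF3 genes had a median of 6.90, from 6.04 (Eif3d) to 9.01 (Eif3j2). The smallest DMDA-PatA values were those of Eif6 (2.45 ± 0.47) and Eif2s2 (2.73 ± 0.34). Without DMDA-PatA replicate 2, the call of Eif2ak3 was lost (adjusted p = 0.62), and that of Eif6 with harringtonine was lost without control replicate 1 or harringtonine replicate 2. Among the puromycin calls, those of Eif1a, Eif1b, Eif2a, Eif2ak3 and Eif3i were lost without 1 library. The ratios of Eif1a may count coding sequence as 5′ UTR, since 72.5% of its listed 5′ UTR lay in coding exons.

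The 5′ UTRs of 10 members held too few reads for the test. Eif2s3x (18 nt), Eif2s3y (74 nt), Eif3e (44 nt), Eif3f (15 nt) and Eif3h (24 nt) had 0 footprints in the 8 ribosome profiling libraries, which in a control library allows up to 3.54 or 2.72 normalized counts. Eif2b3, Eif2ak4, Eif3b, Eif3j1 and Eif5a2 had 5 to 14 footprints in all. With no read filter beyond 1 read, the 5 with footprints gave 0 calls in the 5′ UTR itself on the spike-in scale (edgeR), and 1 with DMDA-PatA and 1 with harringtonine at an unadjusted p under 0.05. In the ratio of 5′ UTR to ORF, 4 of these could be fitted. Eif3b (adjusted p = 9.97e-11), Eif2b3 (8.95e-07) and Eif2ak4 (0.0221) were then called higher with DMDA-PatA, all 4 with harringtonine and 0 with puromycin, where 2 had an unadjusted p under 0.05. These ratios rest on 7 to 14 footprints each.

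Paralogs differed in what could be read. Eif1 and Eif1b are 81.1% identical over the ORF, and Eif1b had values (336 and 250 in control libraries) while Eif1 had none on its ORF. Eif2s3x and Eif2s3y are 86.2% identical over the listed 1032 nt of Eif2s3x. With DMDA-PatA Eif2s3y went from 2459 and 2170 to 61.9 and 105, a relative log2 fold change of −0.59 ± 0.19 against 2.64 ± 0.36 for Eif2s3x, and its call was lost without any 1 of the 4 libraries compared. Eif2s3x is at chrX:94199641-94212651 (− strand), and 91.3% of its windows are repeated. Eif1a and Eif1ax are 85.6% identical. Eif1ax was lower with DMDA-PatA (2039 and 1760 to 29.0 and 37.3), and Eif1a, with 43.4% repeated windows, was not called (0.35 ± 0.27). Eif5a2 went from 151 and 88.8 to 1.26 and 9.74, values of 2 and 12 reads, and was not called relative to the typical transcript (−0.32 ± 0.51), whereas Eif5a was lower (−0.92 ± 0.22). The differences between paralogs were not tested.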

How the data were processed

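The authors aligned stranded SOLiD reads to mm10 (GRCm38) with LifeScope, kept unique matches, shifted footprints of 26 to 36 nt to the ribosome position, counted them by region of 1 transcript per gene (Ensembl 76), and deposited normalized values, here called signal. Picard 1.38 is named in the submitters' notes. The deposited signal values were whole multiples of 1 read (tolerance 0.01), which gave back reads. The tests had been planned for counts and were run on these reads with the authors' size factors.

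Tests used edgeR 4.0.16 (quasi-likelihood, Benjamini-Hochberg over all features, adjusted p under 0.05, at least 10 reads in at least 2 libraries, conditions in one fit and no covariate), with limma 3.58.1 and DESeq2 1.42.0 in R 4.3.3. TMM scaling set the typical transcript at 0. Tables, sequences and plots were made with biopython 1.88, pandas 2.3.3, numpy 2.4.6 and matplotlib 3.10.9 under Python 3.11.15. Scripts were tested on simulated data. Genes came from GENCODE M21, which matched 15074 of 15269 transcripts. The listed ORF position differed from M21 in 12 members. Repeats were counted as 30-nt ORF windows found elsewhere on the genome.

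Named members were, per group and drug, the highest and lowest relative change, all calls up to 10 or otherwise the 5 largest and 5 smallest, members with higher 5′ UTR calls (up to 5 per drug), paralog pairs and members that could not be tested. The members and lists were chosen with earlier results of these data known. Floors and intervals cover counting error only, and with 2 libraries per condition the spread between replicates limits precision.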

Additional observations from a re-analysis of the deposited data

How the results depend on the processing

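Of 1008 alternative values of named genes, 903 kept direction and side of the threshold, 99 lost the call and 6 reversed. The 6 were 5′ UTRs with DMDA-PatA under TMM factors from ORF reads, with log2 fold changes of 2.73 (Eif1), 2.50 (Eif1ad), 3.15 (Eif1ax), 2.38 (Eif2d), 1.78 (Eif5) and 1.64 (Eif6). By construction these factors remove the shared fall of ORF footprints, which moved the coding median of 5′ UTRs to 3.71 (DMDA-PatA), 3.74 (harringtonine) and 2.48 (puromycin). With them the 5′ UTR counts were 0 lower and 28 higher with DMDA-PatA, 28 higher for harringtonine and 27 higher for puromycin. limma called 1 lower 5′ UTR with puromycin. With only members under 10% repeated windows, an alternative chosen after seeing the data that drops 13 members, higher ORF calls relative to the typical transcript numbered 1 (DMDA-PatA), 6 (harringtonine) and 6 (puromycin), and higher 5′ UTR calls with harringtonine 10.

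Leaving out each replicate in turn gave 35 to 36 lower ORFs (DMDA-PatA), 29 to 33 (harringtonine) and 28 to 31 (puromycin). Relative counts were 9 to 13 lower and 3 to 5 higher for DMDA-PatA, 9 to 11 and 12 to 13 for harringtonine, and 11 to 13 and 10 to 11 for puromycin. For 5′ UTRs they were 4 to 7 lower and 6 to 9 higher with DMDA-PatA and 10 to 15 higher with harringtonine, and for TE-scores 28 to 29 higher and 3 lower. In these fits a lone library was assumed to vary like the others.

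The replicate numbers did not pair the libraries by the sources. Deviations of same-numbered control and drug libraries correlated at 0.132 (DMDA-PatA), 0.091 (harringtonine) and −0.004 (puromycin) over 6723 ORFs. A replicate block in the model gave 9 higher and 5 lower 5′ UTRs with DMDA-PatA, 14 higher with harringtonine and 24 higher ratios of 5′ UTR to ORF with puromycin, and left the other counts of members as they were. With the size factors of the DMDA-PatA and harringtonine libraries exchanged, as a supplementary sheet lists them, the median coding ORF was at −4.12 and −3.25 on the log2 scale in place of −4.33 and −2.99. Eif2s2, Eif3e and Eif3j2 were then lower on the ORF with harringtonine (35 lower members in place of 32), 5′ UTR calls were gained for Eif5a (DMDA-PatA) and Eif2b1 (harringtonine), and those of Eif1ax and Eif2ak1 with harringtonine were lost. With equal totals of ORF reads the relative coding median was 0.02 with DMDA-PatA and −0.27 with harringtonine in place of −0.13 for both.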
